A study of Ctenopharyngodon idella and Danio rerio with 13 samples.

Results

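Read counts per gene in the sperm of grass carp (Ctenopharyngodon idella) were compared with those in the sperm of zebrafish (Danio rerio). The comparison rests on the 5 libraries titled grass carp sperm and the 5 titled zebrafish sperm, 10 of the 13 libraries of the series. The other 3 came from zebrafish after transplantation of germline stem cells of grass carp, and the series was made to set the 3 kinds of sperm side by side. Both groups here are labelled wildtype, no agent or age is given for either, and each library came from the sperm of a different fish, so the replicates are biological. A dilution of 0.5 µL sperm in 20 µL Hank's buffer was made for each fish, and 1 µL of it went directly into a kit that amplifies full-length mRNA of single cells. The deposited values are raw counts per gene. Grass carp genes served as the features for the zebrafish reads too, so a difference between the species and a difference in how well their reads align cannot be told apart in any result below. All fold changes are log2, grass carp minus zebrafish.

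A mature sperm cell has a condensed nucleus, almost no cytoplasm and little or no transcription, and the RNA it carries is largely what was left over from spermatogenesis. Genes of the axoneme, the microtubule core of the tail, are transcribed before that, in spermatids. Ribosomal proteins, actin and elongation factors are abundant messages in almost every transcribing cell, and so are common in RNA libraries of mixed tissue. In bulk samples such as these, fewer cells of a type and less RNA per cell cannot be told apart.

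The groups differed widely in depth. Counts on named genes were 5117030, 3825769, 5299109, 1335167 and 5471312 in grass carp replicates 1 to 5, and 248321, 59237, 487, 105536 and 183275 in zebrafish replicates 1 to 5. Zebrafish replicate 3 was nearly empty and was left out of every test unless stated. At these totals 1 count was worth 0.183 to 0.749 CPM (counts scaled to a fixed total, the counts on named genes) in grass carp libraries, and 4.03, 16.9, 9.48 and 5.46 CPM in zebrafish replicates 1, 2, 4 and 5. A gene at 0 therefore had an upper limit of 0.548 to 2.25 CPM in the grass carp libraries and of 12.1 to 50.6 CPM in the zebrafish libraries used, taking 3 counts as the floor, for counting error only. Entries with no gene name took 0.0424% ± 0.0562 of all counts in grass carp libraries (SD, n = 5), against 54.8% ± 28.1 in zebrafish libraries (SD, n = 4), and are left out of all that follows.

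The makeup of the libraries, labelled polyA RNA, differed as well. Protein-coding genes held 90.9% to 92.6% of the counts in the grass carp libraries, against 12.9%, 80.7%, 46.0% and 49.6% in zebrafish replicates 1, 2, 4 and 5. Ribosomal RNA (rRNA) genes held 0.0553% to 0.118% in grass carp, against 86.1%, 16.7%, 52.7% and 48.7% in zebrafish. A single rRNA entry, LOC127507967, accounted for 82.1%, 14.3%, 51.4% and 46.4% of the zebrafish counts, and for 0.00259% to 0.0106% of the grass carp counts. Long noncoding RNA genes held 7.04% to 8.74% in grass carp and 0.953% to 2.31% in zebrafish. Every grass carp library was above every zebrafish library in the protein-coding and noncoding shares and below it in the rRNA share.

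**Figure D1:**
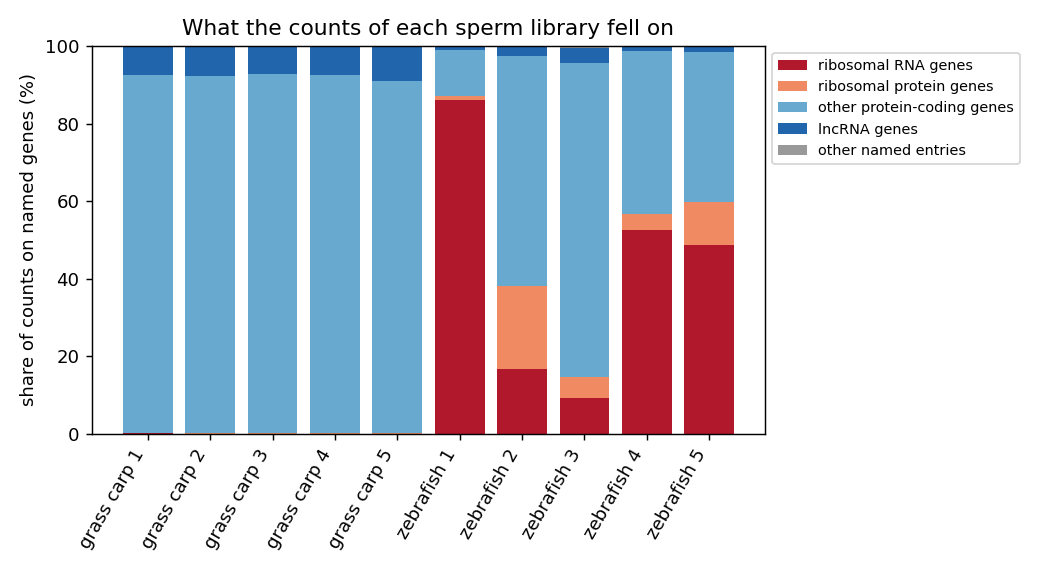
Share of named counts by gene type in each library, in percent (vertical axis), with ribosomal protein genes drawn apart from other protein-coding genes, grass carp replicates on the left and zebrafish replicates on the right. Grass carp bars are almost wholly protein-coding (90.9% to 92.6%), whereas rRNA takes 16.7% to 86.1% of the 4 zebrafish libraries used.

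Grass carp counts were spread over nearly all genes and zebrafish counts over few. The 100 most abundant genes held 5.30%, 2.71%, 2.89%, 3.63% and 5.12% of the counts in grass carp replicates 1 to 5, and 90.4%, 71.2%, 86.8% and 80.2% in zebrafish replicates 1, 2, 4 and 5. The means were 3.93% ± 1.22 in grass carp and 82.1% ± 8.40 in zebrafish (SD, n = 5 and 4), a difference of -78.2 percentage points (exact two-sided permutation p = 0.0159, adjusted over 2 tests 0.0159). When every library was reduced to 59237 counts, 20746, 20455, 21034, 20785 and 20524 genes would be expected to hold a count in grass carp, against 3121, 4011, 2683 and 3158 in zebrafish. The means were 20709 ± 229.9 and 3243 ± 555 genes (SD), a difference of 17465 (exact two-sided permutation p = 0.0159, adjusted 0.0159). Neither measure overlapped between the groups, and 0.0159 is the smallest p that 5 against 4 libraries allow. With rRNA genes left out the 100 top genes still held 30.8% to 72.6% in zebrafish, against 2.71% to 5.30% in grass carp.

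In the fit over all genes, 24865 passed the filter on low counts, and 20560 of them (82.7%) passed an adjusted p under 0.05 (Benjamini-Hochberg, quasi-likelihood test of edgeR). Of these, 19375 were higher in grass carp sperm, 77.9% of those tested, and 1185 were lower, 4.77%. Tallies below over all tested members of a list are to be read beside these shares. The filter was passed through the grass carp libraries alone by many genes: 16358 of those tested had no count in the 4 zebrafish libraries, and 15462 of these were called. Such genes say that zebrafish reads were not counted there and give no fold.

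Attention was therefore given to genes with a count in at least 3 of the 4 zebrafish libraries and at least 4 of the 5 grass carp libraries, called both-group genes here. There were 3073 of 31314 named entries, of which 2885 were protein-coding, 176 long noncoding, 7 rRNA, 3 small nuclear RNA and 2 transfer RNA genes. Since 1 zebrafish count is worth 4.03 to 16.9 CPM, a gene enters this set only where its zebrafish level reaches that range, whatever its grass carp level. These genes held 15.4% to 16.8% of the grass carp counts and 91.6% to 97.1% of the zebrafish counts. Among 3037 that were tested, 502 (16.5%) were higher and 1073 (35.3%) lower in grass carp sperm by the same edgeR test, together 51.9%, while 1462 did not pass. Of the 2523 that carry a gene name rather than a LOC number, 425 (16.8%) were higher and 905 (35.9%) lower. The median log2 fold change was -0.40. By type, 492 of 2861 protein-coding genes were higher and 1005 lower, and 10 of 169 noncoding genes were higher and 62 lower. Of 5 rRNA genes tested 4 were lower and none was higher. The remaining one, LOC127507967, had a log2 fold change of -14.63 ± 9.24 (SE) and did not pass (edgeR adjusted p = 0.15), though the groups did not overlap. Not passing therefore does not mean a like level.

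The balance of higher and lower calls depended on the scaling. With edgeR's TMM factors (trimmed mean of M values), used here, 31.9% of the called both-group genes were higher in grass carp sperm. The share was 34.5% with TMMwsp factors, 57.8% with RLE factors and 71.2% with library size alone, which moved the median log2 fold change by 0.07, 0.74 and 1.22 from that of TMM. Every log2 fold change in the text is on the TMM scale unless another is named. These shifts are medians, and single genes moved by other amounts: with library size alone rps12 was at -9.87 in place of -10.40, and egr1 at -5.03 in place of -6.79. Under all 4 scalings, 502 genes were higher and 571 lower past the threshold. These equal the higher calls with TMM and the lower calls with library size alone. The other scalings moved the median upward from TMM, so keeping the higher calls under them adds little. The higher calls rested on few zebrafish counts: their summed count over the 4 zebrafish libraries had a median of 6.5 and a highest value of 25, whereas genes called lower had a median of 38 and reached 15974. When the both-group rule asked for at least 5 counts in place of 1 in the same numbers of libraries, a choice made after seeing the data, 4 of 687 tested genes were higher and 577 lower. The higher calls had an upper quartile of 9 summed zebrafish counts, so this rule removes most of them whatever their reliability. Without grass carp replicate 1, 2, 3 or 5 the higher calls numbered 239, 243, 235 and 231 in place of 502.

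**Figure D2:**
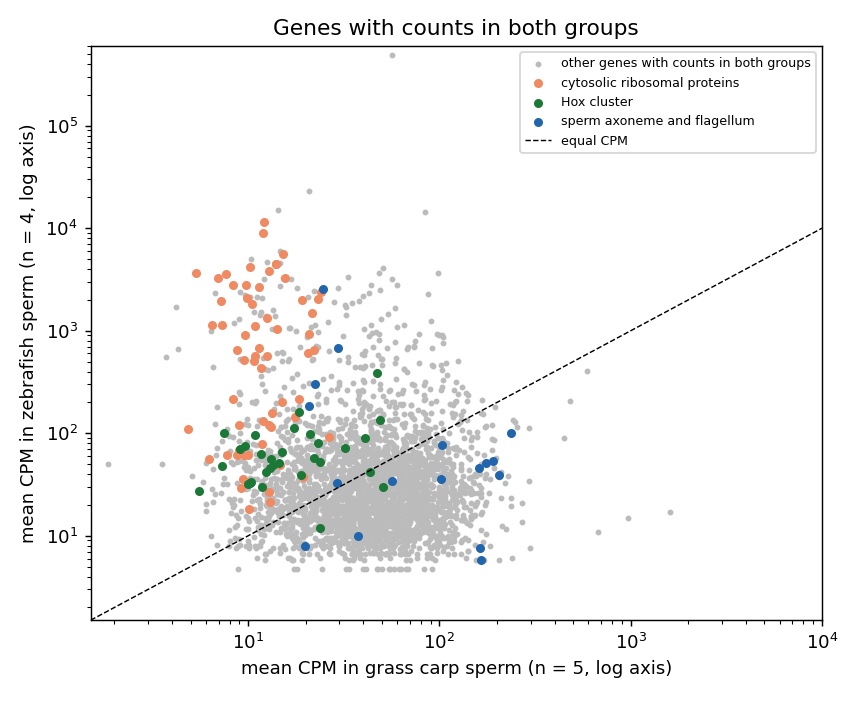
Mean level of each both-group gene in grass carp libraries and in zebrafish libraries, in CPM on log axes (horizontal axis grass carp, vertical axis zebrafish), with ribosomal protein, Hox and axoneme genes in colour and a dashed line at equal CPM. Grass carp means lie within a narrow band (5th to 95th percentile 10.1 to 125.7 CPM), and zebrafish means reach further at the upper end (7.95 to 504 CPM).

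Gene levels in the 2 kinds of sperm did not follow each other. Across both-group genes, which are not independent replicates and whose points share a library's depth, Spearman's rho between a grass carp and a zebrafish library ranged from -0.075 to 0.112 with a median of -0.022 over 20 pairs. Between grass carp libraries it was 0.936 to 0.969 (median 0.952, 10 pairs), and between zebrafish libraries 0.264 to 0.442 (median 0.335, 6 pairs). The spread between fish followed the same pattern, with a median coefficient of variation per gene of 14.4% in grass carp and 87.6% in zebrafish, whose libraries hold far fewer counts. Part of that spread is counting error, and how much was not tested.

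Gene span, the length from the start to the end of a gene with its introns, went with the grass carp counts. Across both-group genes the rho of count with span was 0.681 to 0.711 in the grass carp libraries, against 0.107, -0.019, 0.030 and -0.028 in zebrafish replicates 1, 2, 4 and 5. Over all named entries with a known span it was 0.633 to 0.674 in grass carp, and 0.298, 0.220, 0.214 and 0.240 in those zebrafish libraries. Zebrafish counts thus went with span too, less strongly, outside the both-group set. Genes called higher in grass carp sperm had a median span of 55.2 kb (quartiles 27.4 and 100.9 kb), and genes called lower had 13.3 kb (5.07 and 46.0 kb), beside 26.7 kb over all both-group genes tested. Over all genes tested, both-group or not, the median was 11.4 kb. Per kb of span, grass carp levels were closer together than zebrafish levels: the 95th percentile of protein-coding both-group genes was 17.95 to 19.2 times the 5th. In zebrafish libraries, over the genes with a count, the same ratio was 196, 337, 309 and 656. Of the 2861 genes, 200, 365, 579 and 200 had no count there and were left out. Where a zebrafish level rests on 1 count, depth and span set it, and their part in the ratio was not tested. Not divided by span, the grass carp means of all both-group genes ran from 10.1 to 125.7 CPM between these percentiles, a range over another set of genes and over group means. Span includes introns, and gene length without them was not used. The part of span in the calls was not tested.

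**Figure D3:**
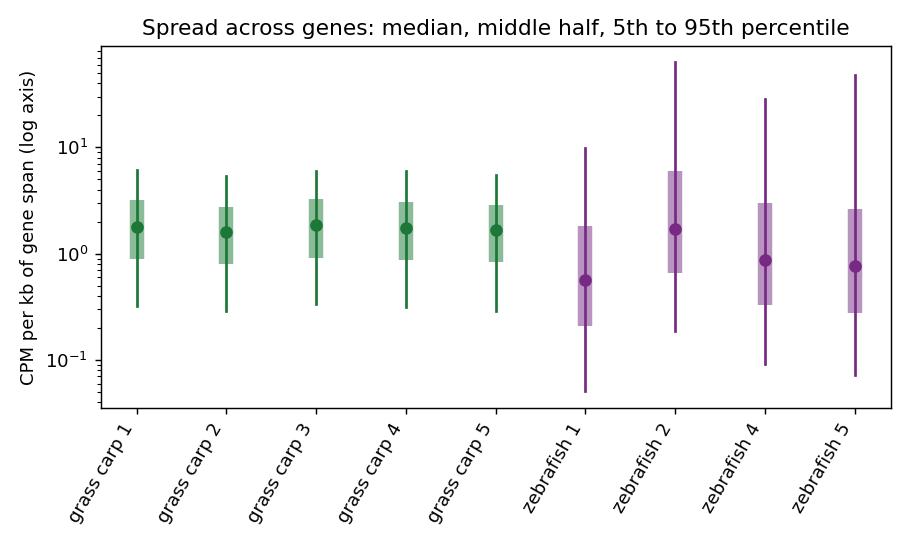
Level per kb of gene span of protein-coding both-group genes with a count in each library, in CPM per kb on a log axis (point: median, thick bar: quartiles, thin line: 5th to 95th percentile), grass carp libraries left of zebrafish libraries. The grass carp distributions are alike, and the zebrafish ones run over a wider range, with 95th to 5th percentile ratios of 196 or more against 19.2 or less. The part of the lower zebrafish depth in this range was not tested.

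Cytosolic ribosomal protein genes, which encode the protein part of the ribosome, were the group with the most lower calls. All 62 that were tested among both-group genes were lower in grass carp sperm, against 35.3% of both-group genes, with a median log2 fold change of -6.36 beside -0.40. Of the 82 genes on the list, 9 had no count in the 4 zebrafish libraries. Over the 72 that passed the filter, 64 were lower and 3 higher. With library size alone 54 of the 62 were lower, and without zebrafish replicate 1, 58. The 82 genes together held 0.0909% to 0.101% of counts in each grass carp library, against 1.07%, 21.4%, 4.11% and 11.1% in zebrafish replicates 1, 2, 4 and 5. All 82, like 29281 of all 31314 named entries, had a count in every grass carp library, and 68, 67, 44 and 70 had one in those zebrafish libraries.

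The small-subunit protein gene rps12 had 13.1, 10.7, 15.7, 11.2 and 9.87 CPM in grass carp replicates 1 to 5. In zebrafish replicates 1, 2, 4 and 5 it had 777, 32024, 19.0 and 12822 CPM, the third of these from 2 counts. Every zebrafish library used was above every grass carp library, with a wide spread among the zebrafish ones, and the log2 fold change was -10.40 ± 2.09 (SE, adjusted p = 0.000936, edgeR's quasi-likelihood test). The large-subunit gene rpl37 had 10.6, 7.58, 15.3, 15.7 and 10.4 CPM in grass carp and 254, 22689, 4198 and 8746 CPM in zebrafish, with a log2 fold change of -10.10 ± 1.69 (edgeR adjusted p = 0.000342). Those of rpl39, rpl8, rps7 and rpl38 were -10.05, -9.78, -9.41 and -9.36. For these genes, rps12 and rpl37, no overlap between the groups was a condition for being picked. The smallest p of the list belonged to rps21, another small-subunit gene, at 11.9, 15.4, 12.1, 11.98 and 12.6 CPM in grass carp and 24.2, 152, 142 and 164 CPM in zebrafish. Its log2 fold change was -4.19 ± 0.35 (edgeR adjusted p = 1.04e-05). Among the 7 genes named here the grass carp level lay between 1.89 CPM per kb of span for rps7 and 3.89 for rpl38, whereas the zebrafish level lay between 30.7 CPM per kb for rps21 and 2971 for rps12.

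**Figure D4:**
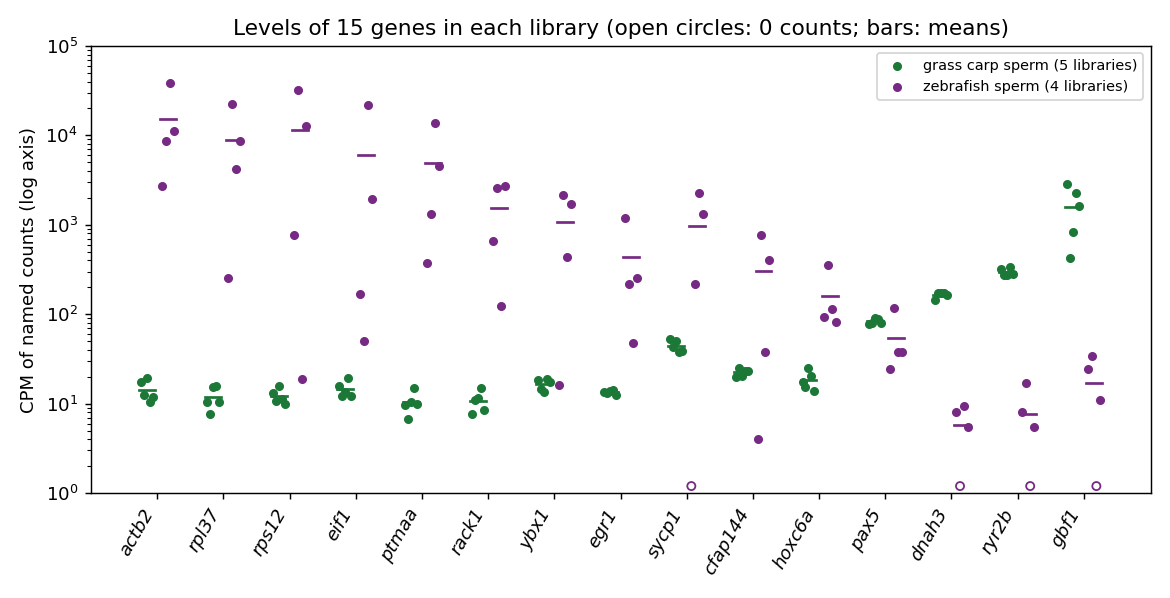
Level of selected both-group genes in each library, in CPM on a log axis, with grass carp points left of zebrafish points for each gene, 1 point per fish, bars at the means and open circles at 0 counts. For actb2 the grass carp points sit between 10.5 and 19.4 CPM and the zebrafish points between 2742 and 38177 CPM; for dnah3 they sit between 145 and 172 CPM and between 0 and 9.48 CPM.

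Translation factors followed in part. Of 21 both-group members tested 14 were lower, none was higher and 7 did not pass, beside 35.3% lower and 16.5% higher of all both-group genes, with a median log2 fold change of -3.03; 24 of the 78 on the list had no zebrafish count, and over the 76 tested 31 were higher and 16 lower. With library size alone 11 of the 21 were lower and 5 higher. The start codon selection factor eif1 had 12.3 to 19.5 CPM in grass carp, against 169, 50.6, 21680 and 1964 CPM in zebrafish replicates 1, 2, 4 and 5 (log2 fold change -9.59 ± 1.97, edgeR adjusted p = 0.00106). The ribosome-bound scaffold gene rack1 had 7.62 to 14.98 CPM in grass carp, against 665, 2600, 123.2 and 2706 CPM in zebrafish, a log2 fold change of -8.16 ± 1.12. For neither gene did the groups overlap, which for eif1 was a condition for being picked. The groups did overlap for btf3, a subunit of the complex that binds nascent chains (-4.77 ± 0.66), and for eef2b, an elongation factor (-3.12 ± 0.48). Picked for their size after the values were seen, naca, the partner subunit of btf3, was at -8.77, and pabpc1b, a poly(A) binding protein, at -6.27. For pabpc1b zebrafish replicate 1, at 16.1 CPM, lay below every grass carp library (57.8 to 64.2 CPM), and the other zebrafish libraries used lay above.

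A gene of the cytoskeleton, actb2, had the lowest log2 fold change among the protein-coding genes named by the rule. Of 10 both-group members 9 were lower and 1 did not pass (median log2 fold change -3.84), beside 35.3% lower of all both-group genes. Over all 34 on the list, which were all tested, 16 were higher and 9 lower, and 16 had no zebrafish count. The cytoplasmic actin gene actb2 had 17.6, 12.6, 19.4, 10.5 and 11.9 CPM in grass carp replicates 1 to 5 and 2742, 8643, 38177 and 11311 CPM in zebrafish replicates 1, 2, 4 and 5. The groups were far apart, with a log2 fold change of -10.99 ± 2.14 (95% interval -15.56 to -6.42, edgeR adjusted p = 0.000777). The second cytoplasmic actin gene, actb1, averaged 8.43 ± 1.58 CPM (SD, n = 5) in grass carp, against 387, 1891, 815 and 1664 CPM in zebrafish (-8.07 ± 0.83, edgeR adjusted p = 5.30e-05). The 2 actin genes encode nearly the same protein, and how reads shared between them were counted is not given. Thymosin beta 4, encoded by tmsb4x, binds actin monomers; it had 3.52 to 7.49 CPM in grass carp and 141 to 1621 CPM in zebrafish (-8.28 ± 0.92). Tubulin alpha tuba8l4 was at -3.34 ± 0.43, and tubulin beta tubb4b, picked after its values were seen, at -7.74 ± 1.56, with no count in zebrafish replicate 1.

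Chromatin, stress and signalling genes had mostly lower calls among both-group genes, of which 35.3% were lower. All 6 both-group members of the histone and high mobility group list were lower (median log2 fold change -4.56). Over the 17 tested 4 were higher and 8 lower, and 3 of its 18 genes had no zebrafish count. Prothymosin alpha, an acidic nuclear protein that binds histones, has 2 copies here: ptmaa had 6.80 to 14.98 CPM in grass carp and 375, 1317, 13673 and 4496 CPM in zebrafish, and ptmab 9.41 to 14.5 CPM in grass carp and 161, 135, 1090 and 764 CPM in zebrafish. Their log2 fold changes were -9.88 ± 1.61 and -6.63 ± 0.77. The architectural factor hmga1a was at -4.79 ± 0.66, with no count in zebrafish replicate 4.

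Among both-group heat shock and immediate early genes 8 of 9 were lower and 1 did not pass (median -3.11). Over the 47 tested 30 were higher and 9 lower, and 31 of the 54 on the list had no zebrafish count. Over all genes tested 77.9% were higher and 4.77% lower. The immediate early transcription factor egr1 had 12.6 to 14.2 CPM in grass carp, against 1204, 220, 47.4 and 256 CPM in zebrafish (-6.79 ± 1.09, edgeR adjusted p = 0.000273). The antiproliferative gene btg1 was at -5.37 ± 0.64 and the constitutive chaperone hspa8 at -3.49 ± 0.45. The chaperone hsp90ab1, picked after its values were seen, was at -7.78 ± 1.28. Of 9 both-group genes for ubiquitin, 14-3-3 proteins and calmodulin 8 were lower and 1 did not pass (median -3.96), and with library size alone 5 were lower and 1 was higher. Over all 19 tested 3 were higher and 8 lower. The polyubiquitin gene ubb had 6.76 to 10.7 CPM in grass carp and 36.2 to 169 CPM in zebrafish (-4.54 ± 0.37, edgeR adjusted p = 9.60e-06), and ywhaba, a 14-3-3 adaptor protein, was at -4.91 ± 0.74.

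Genes for RNA binding and metabolism were less uniform. Of 19 both-group genes for nuclear ribonucleoproteins and splicing 8 were lower, a share near the 35.3% of all both-group genes, none was higher and 11 did not pass (median -1.37), whereas with library size alone 5 were lower and 3 higher. Over the 44 tested 16 were higher and 8 lower. The cold shock domain protein ybx1, which packages mRNA, had 13.4 to 18.7 CPM in grass carp and 16.1, 2144, 436 and 1702 CPM in zebrafish (-6.76 ± 1.01), so zebrafish replicate 1 lay within the grass carp range. The splicing regulator hnrnph1 was at -4.16 ± 0.69, with 900.2 CPM in zebrafish replicate 4 and 10.9 to 84.4 CPM in the other three. Of 5 both-group genes for glycolysis and creatine kinase 3 were lower and 2 did not pass (median -3.41): the mutase pgam1a at -6.23, the dehydrogenase gapdhs at -4.32 and the brain-type kinase ckbb at -3.41. In zebrafish replicates 1, 2, 4 and 5 pgam1a had 14, 1, 0 and 170 counts and gapdhs 10, 2, 0 and 63. Both rested mainly on replicate 5, and for both the groups overlapped. Over the 35 tested of that list 25 were higher and 3 lower. Of 3 both-group proteasome genes 1 was lower, and over the 45 tested 25 were higher and 4 lower. With library size alone 0 of the 3 were lower, and without zebrafish replicate 1, 3. Only 2 of the 56 nuclear genes of oxidative phosphorylation were both-group genes, and both were lower, among them the ATP synthase subunit atp5fa1 (-3.97 ± 0.59). Over the 38 tested 25 were higher and 4 lower, and 44 of the 56 had no zebrafish count. Of 13 genes of the mitochondrial genome 10 had none, and 1, ATP6, was a both-group gene and lower (-3.94 ± 0.72); over the 8 tested 1 was higher and 2 lower. A single transfer RNA gene was tested among both-group genes, and it was lower.

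Hox genes, transcription factors that set position along the body axis and stand in clusters, were lower in grass carp sperm in most both-group members. All 47, like 29281 of all 31314 named entries, had a count in every grass carp library, and 32, 31, 30 and 35 had one in zebrafish replicates 1, 2, 4 and 5. Among 31 both-group members 29 were lower in grass carp sperm, beside 35.3% of both-group genes, none was higher and 2 did not pass, with a median log2 fold change of -2.82. Over all 47, which all passed the filter, 29 were lower and 8 higher, and 9 had no zebrafish count. With library size alone 23 of the 31 were lower and 1 was higher. The clusters together held 0.0847% to 0.105% of grass carp counts, against 0.147%, 0.427%, 0.186% and 0.172% of zebrafish counts.

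The gene hoxc6a had 17.4, 15.4, 24.9, 20.2 and 13.9 CPM in grass carp replicates 1 to 5, against 92.6, 355, 114 and 81.8 CPM in zebrafish replicates 1, 2, 4 and 5, from 23, 21, 12 and 15 counts. Every zebrafish library was above every grass carp library, and the log2 fold change was -3.95 ± 0.29 (edgeR adjusted p = 3.99e-06). For hoxc11a the values were 7.58 to 11.9 CPM in grass carp and 56.9 to 118 CPM in zebrafish (-4.05 ± 0.35, edgeR adjusted p = 1.18e-05), and for hoxb5b 14.8 to 20.2 CPM in grass carp and 47.4 to 169 CPM in zebrafish (-3.90 ± 0.36). The member with the lowest fold change was hoxc9a, at -5.08 ± 0.50, named after its values were seen. The zebrafish libraries spanned 81.8 to 355 CPM for hoxc6a, beside 19.0 to 32024 CPM for rps12. Per kb of span hoxc6a stood at 2.39 CPM in grass carp and 20.9 CPM in zebrafish, beside 3.15 and 2971 CPM per kb for rps12.

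**Figure D5:**
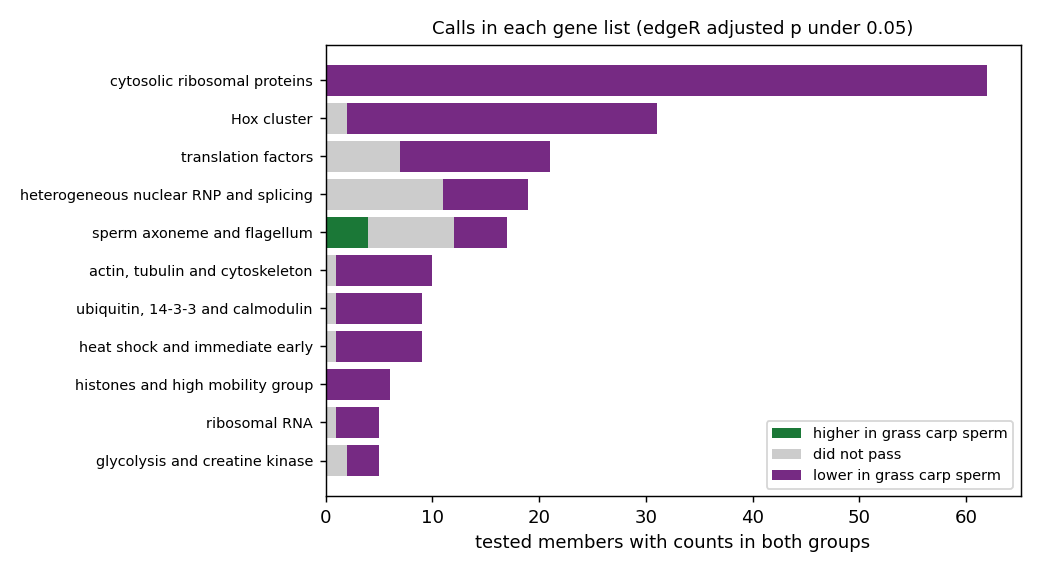
Number of both-group genes of each list with at least 5 tested members that were higher, lower or did not pass in grass carp sperm relative to zebrafish sperm (edgeR adjusted p under 0.05). All 62 ribosomal protein genes and 29 of 31 Hox genes are on the lower side, and axoneme genes stand on both sides, with 4 higher and 5 lower.

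Sperm axoneme and flagellum genes, the defining list for the labelled cell type, had calls on both sides. All 95, like 29281 of all 31314 named entries, had a count in every grass carp library. In zebrafish replicates 1, 2, 4 and 5, 19, 22, 20 and 35 had one, and 47 had none in any of these, beside 22353 of the 31314. The 95 genes held 0.447% to 0.471% of grass carp counts and 0.0338%, 1.05%, 0.696% and 0.513% of zebrafish counts. Of 17 both-group members 4 were higher in grass carp sperm, 5 were lower and 8 did not pass (median log2 fold change 0.42), shares near the 16.5% higher and 35.3% lower of all both-group genes. With library size alone 9 were higher and 4 lower. Over the 92 tested 62 were higher and 9 lower, beside 77.9% and 4.77% of all genes tested. The 4 higher both-group ones were all dynein heavy chains, the large motor proteins that bend the tail. Of these dnah3 had 145, 172, 171, 172 and 164 CPM in grass carp and 2, 0, 1 and 1 counts in zebrafish replicates 1, 2, 4 and 5, at most 9.48 CPM (3.37 ± 0.49, edgeR adjusted p = 0.000182). Picked after their values were seen, dnah9l was at 3.36 ± 0.49, dnah6 at 1.10 ± 0.44 and dnah7 at 0.84 ± 0.32, and the calls of dnah6 and dnah7 were lost when any 1 of grass carp replicates 1 to 5 was left out, with adjusted p up to 0.195 and 0.374 in edgeR's quasi-likelihood test. Not all dynein heavy chains were higher: the both-group members dnah1, dnah2, dnah5 and dnah12 did not pass, at 0.42, 0.54, -0.15 and 0.17.

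Of the 5 lower axoneme genes 4 are described here. The microtubule inner protein gene cfap144 had 19.9 to 25.4 CPM in grass carp, against 4.03, 760, 37.9 and 409 CPM in zebrafish replicates 1, 2, 4 and 5 (-4.41 ± 0.59, edgeR adjusted p = 0.000145). Zebrafish replicate 1 lay below every grass carp library and the other three above. Named after their values were seen, cfap299, a cilia and flagella associated gene, had 20.5 to 27.7 CPM in grass carp and 0, 2921, 5098 and 2144 CPM in zebrafish (-7.46 ± 1.44), and gas8, a gene of the dynein regulatory complex, was at -5.19 ± 0.83. For gas8 zebrafish replicate 1, at 8.05 CPM, also lay below every grass carp library (26.1 to 34.4 CPM). The last, also named after its values were seen, was spag6, a central pair gene, at -1.38 ± 0.53, with adjusted p of 0.0289 in edgeR's quasi-likelihood test; with library size alone it was at -0.12 (edgeR adjusted p = 0.793), and without zebrafish replicate 1 at -0.26 (edgeR adjusted p = 0.666). Of the 21 genes of the sperm head and spermatid list 10 had no zebrafish count, and of 3 both-group members 1 was lower and 2 did not pass. With library size alone 0 of the 3 were lower, without zebrafish replicate 1 also 0, and without zebrafish replicate 4, 2. Over the 19 tested 14 were higher and 1 lower.

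Germ cell genes, like most named entries, had few zebrafish counts. Of 39 genes 29 had none, beside 22353 of all 31314 named entries, and 4, 2, 3 and 7 had a count in zebrafish replicates 1, 2, 4 and 5. All 39, like 29281 of the 31314, had one in every grass carp library. Their median level was 30.3 to 37.0 CPM in the grass carp libraries, near the limit of 12.1 to 50.6 CPM that a count of 0 allowed in the zebrafish libraries. Over the 37 tested 31 were higher and 3 lower in grass carp sperm, beside 77.9% and 4.77% of all genes tested. The 2 both-group members were both lower, beside 35.3% of all both-group genes. The synaptonemal complex gene sycp1, which pairs chromosomes in meiosis, had 52.8, 43.4, 50.4, 37.5 and 38.4 CPM in grass carp, against 0, 220, 2293 and 1326 CPM in zebrafish (-5.43 ± 1.21, edgeR adjusted p = 0.00168). The germ granule gene tdrd7a had 27.0 to 34.0 CPM in grass carp, against 0, 186, 104 and 70.9 CPM in zebrafish (-2.16 ± 0.43, edgeR adjusted p = 0.00085). Neither call was kept in limma voom with a weight per group, an alternative chosen after seeing the data (limma adjusted p = 0.117 and 0.114), and that of tdrd7a was lost with library size alone (edgeR adjusted p = 0.0868).

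The marker lists of other cells, like most named entries, held few zebrafish counts and had counts throughout in grass carp libraries. All 23 leukocyte, 19 blood cell, 17 testis somatic, 16 oocyte and 20 epithelium, muscle and kidney genes had a count in every grass carp library. So did 29281 of all 31314 named entries. The shares of counts were 0.0801% to 0.102% for leukocyte genes and 0.0306% to 0.0337% for oocyte genes in grass carp, against 0.000403% to 0.0118% and 0% to 0.00218% in the 4 zebrafish libraries. Those of testis somatic genes were 0.0533% to 0.0624% in grass carp and 0.000546% to 0.00338% in zebrafish. Blood cell genes held 0.0646% to 0.068% in grass carp and 0.00164% to 0.0473% in zebrafish, and epithelium, muscle and kidney genes 0.0443% to 0.0733% and 0.00546% to 0.00853%. With no count in any of the 4 zebrafish libraries were 18 of the leukocyte, 11 of the blood cell, 14 of the testis somatic, 13 of the oocyte and 9 of the epithelium, muscle and kidney genes. Among all 31314 named entries 22353 had none there. Of those tested, 21 of 23 leukocyte, 9 of 15 blood cell, 16 of 17 testis somatic, 11 of 14 oocyte and 10 of 20 epithelium, muscle and kidney genes were higher, and 1 blood cell gene was lower. Over all genes tested 77.9% were higher and 4.77% lower. No oocyte gene met the both-group rule. A muscle gene outside the lists went the other way: mybpc2a had 13, 770, 1433 and 5715 counts in zebrafish replicates 1, 2, 4 and 5. The part of other cells in the differences above was not tested.

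Few of these markers could be compared. The only leukocyte gene among both-group genes was spi1b, a myeloid transcription factor, with 133, 135, 74.7, 90.6 and 287 CPM in grass carp, against 0, 33.8, 37.9 and 32.7 CPM in zebrafish (1.62 ± 0.64, edgeR adjusted p = 0.0302). The groups did not overlap, but the call was lost without grass carp replicate 1, 2, 3 or 5 or zebrafish replicate 1 or 2, with adjusted p up to 0.261 in the same edgeR test. Of 2 blood cell genes 1 was higher and tal1, a factor of blood formation, was lower: it had 7.49 to 19.1 CPM in grass carp and 0, 405, 47.4 and 5.46 CPM in zebrafish (-2.93 ± 0.73, edgeR adjusted p = 0.00319). Without zebrafish replicate 2 it was at -0.97 (edgeR adjusted p = 0.288). The call of the higher blood cell gene was lost without grass carp replicate 1, 2, 3 or 5. The 3 both-group genes of epithelium, muscle and kidney and the 1 of testis somatic cells did not pass.

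The 10 genes with the largest rises in grass carp sperm, dnah3 among them, had gene spans from 23.7 kb for abca5 to 175 kb for nbas. They were taken from 2528 protein-coding both-group genes with a gene name. Of these 416 were called higher, did not overlap between the groups and kept their direction under the 4 scalings, while 179 met the same conditions on the lower side. Overlap was judged on CPM without TMM factors. By that measure 1038 of all 3037 tested both-group genes lay higher in grass carp without overlap, and 226 lay lower. The adaptor gene grb10b, which binds receptor tyrosine kinases, had 408, 316, 362, 949 and 1346 CPM in grass carp and 1, 2, 0 and 1 counts in zebrafish replicates 1, 2, 4 and 5, at most 33.8 CPM (5.42 ± 0.92, edgeR adjusted p = 0.00037). The Golgi exchange factor gene gbf1 had 2856, 428, 831, 2284 and 1604 CPM in grass carp and 6, 2, 0 and 2 zebrafish counts, at most 33.8 CPM (5.32 ± 1.11, edgeR adjusted p = 0.00118). Neither gene overlapped between the groups, which was a condition for being picked.

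The rest were even across the grass carp fish. The ryanodine receptor genes ryr2b and ryr1b, calcium release channels of heart and skeletal muscle, had 274 to 336 and 167 to 207 CPM in grass carp, against 0 to 16.9 CPM for each in zebrafish, and log2 fold changes of 4.23 ± 0.60 and 3.54 ± 0.49. The others were nbeal2, known for its part in blood platelet granules in humans, at 3.68, frya, a homologue of the fly gene furry, at 3.49, abca5, a lipid transporter gene, at 3.45, nbas, which acts in transport between Golgi and endoplasmic reticulum, at 3.43 and col16a1, a collagen gene, at 3.40. Their zebrafish counts were 0 to 2 in each library, so the zebrafish levels rest on single reads.

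Among protein-coding genes with a gene name, the 10 most abundant were different ones in each group. In grass carp plxnb1a, a semaphorin receptor gene, led with 21147, 2164, 3363, 4964 and 2023 CPM, and it had 1, 0, 0 and 1 counts in zebrafish replicates 1, 2, 4 and 5. The phosphatase gene ptpn1 and the transcription factor gene arnt were also among the top 10 in grass carp and had no zebrafish count. Pooled over libraries they held 409 and 397 CPM in grass carp, by library size alone and without TMM factors. Taking 3 counts over the whole zebrafish group as the floor, 5.03 CPM, this is at least 81.4 and 78.9 times the zebrafish share of counts. Zebrafish library sizes include the rRNA counts, so these limits hold for that scaling only and are not folds between the species. In zebrafish actb2 led, followed by mybpc2a, a myosin binding protein gene of fast muscle, with 67.8 to 106 CPM in grass carp and 52.4, 12999, 13578 and 31183 CPM in zebrafish replicates 1, 2, 4 and 5 (-8.42 ± 2.12, edgeR adjusted p = 0.0034). Zebrafish replicate 1 lay below every grass carp library and the other three far above. The sorting complex gene chmp5b behaved alike, with 10.5 to 20.3 CPM in grass carp and 0, 8120, 9684 and 5271 CPM in zebrafish (-9.28 ± 1.83). Ribosomal protein genes made up 5 of these 10 genes of zebrafish.

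Some genes had log2 fold changes near 0 on the TMM scale. Among both-group genes with a log2 fold change within 0.5 of 0, pax5, a transcription factor gene of B cells and the midbrain, was one of the 5 with the smallest SE. It had 78.4, 80.5, 91.9, 88.4 and 79.3 CPM in grass carp, against 24.2, 118, 37.9 and 38.2 CPM in zebrafish replicates 1, 2, 4 and 5, from 6, 7, 4 and 7 counts. The log2 fold change of -0.19 (95% interval -0.72 to 0.34) did not pass (edgeR adjusted p = 0.54). With library size alone it was 0.98 (edgeR adjusted p = 0.0106).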

How the data were processed

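Sperm RNA of 5 grass carp and 5 zebrafish, 1 library per fish, was compared; 3 other libraries of the series were not used. Each file deposited by the authors holds the raw counts of 1 library. Tools listed in the submitters' processing notes, with no version or role, are HISAT2, featureCounts, Subread, SAMtools, fastp, FastQC and CASAVA. The build, the strand setting and the handling of multiply mapped reads are not given in the sources used, hence no coordinates are printed, and antisense, overlapping or closely similar genes are uncertain. Gene type and span were taken by symbol from RefSeq's table for grass carp, assembly HZGC01. Entries with no gene name entered neither the library sizes nor the tests, at a mean of 0.0424% of counts in grass carp and 54.8% in zebrafish libraries.

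Counts were tested with edgeR 4.0.16 in R 4.3.3: TMM factors, edgeR's own filter for low counts (minimum 10, about 7.49 CPM in at least 4 libraries), the quasi-likelihood F test, Benjamini-Hochberg adjustment over all genes tested, and a threshold of 0.05, on 5 grass carp and 4 zebrafish libraries. Zebrafish replicate 3, with 487 counts, was left out. CPM values are scaled to counts on named genes without TMM factors. SE values are derived from the F statistic. Of 45 pairs of libraries 0 were identical. The fit was tested on simulated data, and with unequal spread between the groups it made more false calls than with equal spread. Spread was unequal here, with a median coefficient of variation of 14.4% in grass carp and 87.6% in zebrafish. The edgeR calls may therefore hold more false ones than with equal spread. An alternative, limma 3.58.1 voom with a weight per group, was added. Others were DESeq2 1.42.0, other scalings and filters, and leaving out each library. Shares and gene numbers were compared by exact permutation tests.

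The genes named carry a symbol other than a LOC number and are the 10 largest falls and 10 largest rises among called protein-coding both-group genes without overlap and with 1 direction under 4 scalings, up to 3 members of each of 22 gene lists by p, the 10 most abundant protein-coding genes per group, and the 5 genes within 0.5 of a log2 fold change of 0 with the smallest SE; the text names a part of these and says where a gene was picked later. The comparison, its gene lists and its rules were chosen with earlier results of these data known. Of the eligible genes 2 are not reported here, though counts over a list or over all genes include them. No sequences are printed.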

Additional observations from a re-analysis of the deposited data

Results flagged for a closer look

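Single libraries stood apart from the rest of their group in 22 of 160 groups of values examined, by the gap to the nearest library as a share of the group's range (Dixon's 95% critical value). Chance would flag about 1 in 20 groups if values were normally distributed, which was not tested. Many of the zebrafish values rest on few counts, so the rate for them is not known. The groups share libraries.

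Among grass carp libraries, replicate 1 was highest for plxnb1a at 21147 CPM and lowest for tmsb4x at 3.52 CPM. Replicate 2 was highest for rps21 at 15.4 CPM. Replicate 3 was highest for ckbb at 20.8 CPM and for the rho of count with span, at 0.711. Replicate 4 was lowest for tuba8l4 at 12.7 CPM, and replicate 5 highest for spi1b at 287 CPM.

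Among zebrafish libraries, replicate 2, the one with the fewest counts of those used, stood highest most often. It held 405 CPM of tal1, 355 CPM of ckbb, 355 CPM of hoxc6a, 118 CPM of hoxc11a, 118 CPM of pax5 and 33.8 CPM each of grb10b and ganabb, and 0.427% of its counts lay on Hox genes. Replicate 1 was lowest for rps21 at 24.2 CPM and for spi1b at 0.0 CPM. Replicate 4 was highest for eif1 at 21680 CPM and for hnrnph1 at 900.2 CPM. Replicate 5 was highest for hmga1a at 535 CPM, pgam1a at 928 CPM and gapdhs at 344 CPM.

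Outside the genes compared, entries with no gene name held 54.8% ± 28.1 of the counts in zebrafish libraries (SD, n = 4), against 0.0424% ± 0.0562 in grass carp libraries (SD, n = 5).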

How the results depend on the processing

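The directions and the exact permutation p of the shares and gene numbers stayed past the threshold under the alternatives run. The difference in the share on the 100 most abundant genes was -81.9 to -75.5 percentage points without any single library, and the difference in genes at matched counts was 17278 to 20323. With rRNA genes left out they were -54.0 points and 12565 genes, and with zebrafish replicate 3 kept -76.2 points and 315 genes, at a matched total of 487 counts. Over all genes, the count of higher genes was 730 and that of lower genes 756 when only both-group genes were tested, which removes most genes from the test, and 636 were lower with library size alone, beside 19375 and 1185. Both-group genes higher in grass carp sperm numbered 502 in the fit reported. They numbered 1413 with library size alone, 1062 with RLE factors, 1060 with DESeq2, 283 with zebrafish replicate 3 kept, 4 with a rule of at least 5 counts and 141 with a rule of all 4 zebrafish libraries, and 231 to 583 with a single library left out. They fell to 239, 243, 235 and 231 without grass carp replicates 1, 2, 3 and 5. The cause was not tested. Both-group genes lower numbered 571 with library size alone and 577 with the rule of at least 5 counts, beside 1073, and 914 to 1233 with a single library left out. The rules on counts and limma voom were chosen after seeing the data. The rule of at least 5 counts removes genes with few zebrafish counts, so it cannot weigh the higher calls that it drops.

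The repeat numbers did not pair the libraries: deviations of same-numbered grass carp and zebrafish libraries correlated between -0.0213 and 0.0127, and 1 of 4 grass carp libraries correlated best with its own number. With the replicate block 497 genes were lower over all genes, and 120 both-group genes were higher and 491 lower.

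Of 71 named genes examined 62 were on the same side of the threshold and in the same direction under every alternative that gave a value. These 71 were a set listed for the text and not every gene that the rules picked. Among called genes outside the set, the calls of single genes were lost in 11, 5, 5, 3 and 1 alternatives. The largest falls and rises were selected for no overlap between the groups and for keeping their direction under the 4 scalings, so both were fixed beforehand. The log2 fold change of pax5 turned to 0.98 with library size alone, 0.54 with RLE factors, 0.55 with DESeq2 and 0.36 when only both-group genes were tested. The calls of sycp1, tdrd7a, spi1b, tal1, mybpc2a, spag6, dnah6 and dnah7 were lost in at least 1 alternative (spi1b log2 fold change 0.70 without grass carp replicate 5). Depth limits the zebrafish values: 1 count was worth 4.03 to 16.9 CPM, so a gene below that level was not detectable, and every higher call rests on at most 25 zebrafish counts. Floors cover counting error only, since the reads were amplified and carry no molecular identifiers. Intervals come from the quasi-likelihood fit and also hold the spread between libraries that it estimated.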
